A study of Mus musculus with 11 samples.

Results

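Guanylate-binding proteins (GBPs) and immunity-related GTPases (IRGs) are large and medium-sized enzymes that bind and split GTP and that mammalian cells make in response to interferon gamma. The 10 genes described here are Gbp2, Gbp3, Gbp4, Gbp5, Gbp6, Gbp7, Gbp8 and Gbp9 of the GBP family, and Irgm1 and Igtp of the IRG family. They were taken by gene symbol as members of these families, whatever their values, out of 55414 genes in the deposited table. All 10 were found there and all 10 passed the filter on low counts. Each is set beside Ifng, which encodes interferon gamma itself.

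The table holds bulk RNA of CD8+ T cells from OT-I mice, whose transgenic T cell receptor recognises an ovalbumin peptide, at 12 h. In the Torin group (n = 3), cells were given Torin, an inhibitor of the kinase mTOR, and stimulated with N4, the name of that peptide. In the stimulated group (n = 4), cells received DMSO and N4, and in the naive group (n = 4) cells were left without treatment. All 11 libraries carry OT-I, and neither doses, age, sex and strain background nor a DMSO group without N4 are among the samples and labels used here. DMSO and N4 therefore cannot be told apart in the stimulated group. Libraries carry the numbers 1 to 4, with no Torin library 2, and nothing says whether they came from separate animals or cultures. The p-values then measure only the spread between these libraries, which may be technical.

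Interferon gamma binds the receptor made of Ifngr1 and Ifngr2, and the kinases Jak1 and Jak2 then start a cascade that ends at GAS sites and interferon-stimulated response elements (ISREs) in DNA. Irf1 is among the factors that bind ISREs, and GBP and IRG promoters are textbook targets of this response. The GBPs attack the membranes of vacuoles and bacteria inside infected cells and promote inflammasome activity. Irgm1 and Igtp (also named Irgm3) are regulatory IRGs, which sit on the cell's own membranes and hold the effector IRGs off them. In mice without Irgm1, activated CD4+ T cells die when exposed to interferon gamma. CD8+ T cells make interferon gamma in quantity after antigen and also carry its receptor.

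The promoters are shown because they hold the letters through which this response is known to act. RefSeq promoter sequences, from 250 bases before to 50 bases after the start, on build GRCm38.p6, were matched for 6 of the 10 genes: Gbp2, Gbp3, Gbp5, Gbp7, Irgm1 and Igtp. Gbp4, Gbp6, Gbp8 and Gbp9 had no entry. The capitals mark the ISRE core (GAAA, any 2 bases, then GAAA, searched on both strands) and the GAS core (TTCNNNGAA, the same on both strands), and no match of an ISRE core overlaps a match of a GAS core. The windows are chr3:142620413-142620712 (+ strand) for Gbp2, chr3:142496684-142496983 (+ strand) for Gbp5, chr3:142530086-142530385 (+ strand) for Gbp7 and chr11:58199306-58199605 (+ strand) for Igtp.
Gbp2: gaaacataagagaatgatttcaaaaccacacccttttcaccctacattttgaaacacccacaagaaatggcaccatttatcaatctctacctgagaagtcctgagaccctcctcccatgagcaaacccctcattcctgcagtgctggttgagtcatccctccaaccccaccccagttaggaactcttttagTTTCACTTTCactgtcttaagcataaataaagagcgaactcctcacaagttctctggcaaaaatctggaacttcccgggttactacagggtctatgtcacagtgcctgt
Gbp5: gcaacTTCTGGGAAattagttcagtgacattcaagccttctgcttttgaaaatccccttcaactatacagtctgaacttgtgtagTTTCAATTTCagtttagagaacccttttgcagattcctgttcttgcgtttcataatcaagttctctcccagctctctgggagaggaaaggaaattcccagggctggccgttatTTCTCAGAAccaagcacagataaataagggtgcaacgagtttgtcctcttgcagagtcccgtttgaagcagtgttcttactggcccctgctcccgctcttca
Gbp7: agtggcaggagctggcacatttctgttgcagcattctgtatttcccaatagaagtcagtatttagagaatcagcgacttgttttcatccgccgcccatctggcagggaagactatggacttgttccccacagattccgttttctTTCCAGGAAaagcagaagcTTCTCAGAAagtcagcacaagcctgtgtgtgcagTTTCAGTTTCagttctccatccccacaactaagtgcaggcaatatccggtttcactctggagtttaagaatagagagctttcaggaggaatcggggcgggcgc
Igtp: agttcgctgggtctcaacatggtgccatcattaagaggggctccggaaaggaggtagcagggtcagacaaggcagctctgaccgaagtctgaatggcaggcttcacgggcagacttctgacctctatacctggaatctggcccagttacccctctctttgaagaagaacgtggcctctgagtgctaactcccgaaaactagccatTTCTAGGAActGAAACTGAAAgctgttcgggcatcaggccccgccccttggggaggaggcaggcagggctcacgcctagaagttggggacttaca

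All 6 promoters held an ISRE core, which 3.49% of 27025 RefSeq promoters held. A GAS core was present in 3 of the 6, those of Gbp5, Gbp7 and Igtp, against 8.47% of all promoters, and these 3 held both cores, against 0.514% of all promoters. Counted with the first transcribed base as 0, the Igtp promoter has TTCTAGGAA at -45 to -37 just before GAAACTGAAA at -34 to -25. In Gbp7 the GAS cores TTCCAGGAA and TTCTCAGAA lie at -106 to -98 and -87 to -79, upstream of an ISRE core at -53 to -44. In Gbp5 the order differs, with TTCTGGGAA at -245 to -237, an ISRE core at -165 to -156 and TTCTCAGAA at -52 to -44. The Gbp2 promoter has a lone ISRE core, TTTCACTTTC on the strand shown, at -59 to -50. Gbp3 and Irgm1 each have a pair of ISRE cores that share bases, at -45 to -36 and -39 to -30 in Gbp3 and at -30 to -21 and -24 to -15 in Irgm1. A second Gbp3 start in the table had neither core. These matches describe letters in the windows and say nothing of binding.

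**Figure D1:**
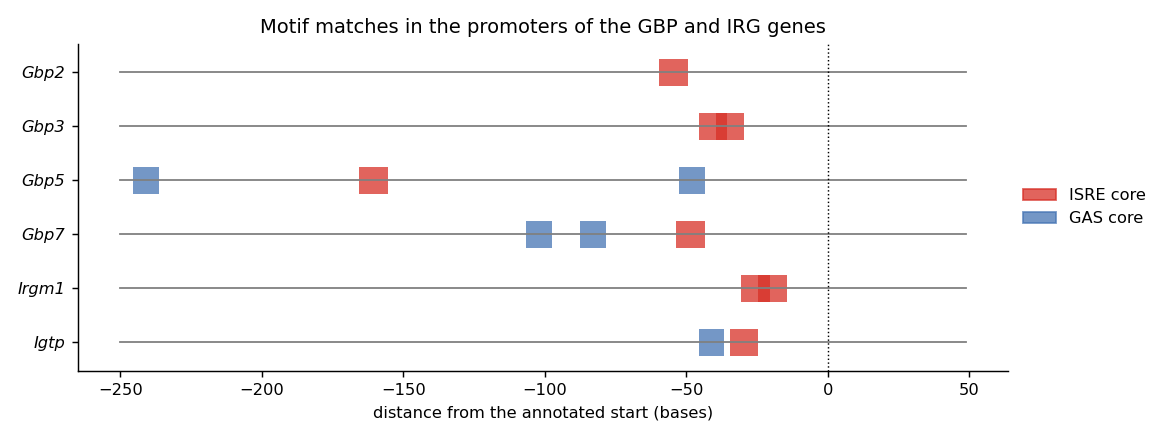
Positions of ISRE cores and GAS cores in the RefSeq promoters of the 6 members with an entry, in bases from the first transcribed base (x axis), 1 row per gene. Each mark is a match on either strand. All 6 rows carry an ISRE core and 3 rows (Gbp5, Gbp7, Igtp) also carry a GAS core.

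The members sit in 3 clusters of related genes. Gbp5, Gbp7, Gbp3 and Gbp2 lie in that order on chromosome 3, with Gbp2b between Gbp3 and Gbp2. Gbp8, Gbp9, Gbp4 and Gbp6 lie on chromosome 5 and Irgm1 and Igtp on chromosome 11. The chromosome 5 genes are hard to count apart. In the GENCODE M21 annotation (GRCm38), exons of Gbp4, Gbp8 and Gbp9 overlap on the same strand, and exons of Gbp6 overlap those of Gm43302. Of all stretches of 31 bases in the transcripts of each gene, 74.2% of those of Gbp6 also occur in another gene, as do 31.1% for Gbp8, 18.3% for Gbp9, 15.9% for Igtp (all in Irgm2), 14.7% for Gbp7 and 14.3% for Gbp4. The shares for Gbp3, Gbp2, Gbp5 and Irgm1 were 5.64%, 4.85%, 3.05% and 2.20%. How a read that fits several of these genes was assigned is not given in the sources used here, so values of single genes on chromosome 5 are uncertain and sums over overlapping genes are given beside them.

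Library totals lay between 241.9e6 and 405.9e6 estimated counts. All 7 CD8 T cell markers were detected, with summed levels of 3050 to 3193 CPM in Torin, 2007 to 2405 CPM in stimulated and 4761 to 6081 CPM in naive libraries; in bulk RNA, fewer cells of a type and less RNA per cell cannot be told apart. Markers of other cells differed between groups as well as between libraries. The 12 monocyte and macrophage markers summed to 27.6 to 36.2 CPM in Torin, 63.7 to 234 CPM in stimulated and 180 to 2396 CPM in naive libraries, and the 12 granulocyte markers to 16.7 to 50.7 CPM in Torin and 136 to 8607 CPM in naive libraries, so every naive library lay above every Torin library for both lists. Lyz2, a lysozyme of myeloid cells, was at 3.81 to 34.2 CPM in the Torin and stimulated libraries and at 96.7 CPM or more in every naive library. Much of the monocyte and macrophage sum in stimulated libraries came from Cebpb, at 53.5 to 138 CPM, against 12.5 to 21.1 CPM in Torin libraries. The gap between those groups therefore rests largely on that gene. A few libraries also stood apart within their group. The granulocyte markers summed to 2073 CPM in stimulated 2 and 8607 CPM in naive 2, against 16.7 to 177 CPM in the other libraries, and the monocyte and macrophage markers were highest in naive 2, with 27.6 to 278 CPM elsewhere. The 10 B cell markers summed to 13246, 14394 and 47399 CPM in Torin 4, stimulated 4 and naive 4, against 39.1 to 368 CPM in the others, and the 10 dendritic cell markers to 1315 CPM in naive 2 and 1529 CPM in naive 4, against 167 to 608 CPM elsewhere. Most of the dendritic cell sum came from H2-Aa, H2-Ab1 and Cd74. These were at 334, 504 and 468 CPM in naive 2 and at 470, 447 and 599 CPM in naive 4. Ly6g was at 0 in every Torin library and Cr2 in every stimulated library, while no granulocyte, monocyte or B cell marker was at 0 in every naive library. Myeloid cells and B cells can also make GBPs and IRGs, so the counts of members called are also given without naive 2 and without numbers 2 and 4. CPM are counts scaled to a common library size with TMM factors, tests are edgeR's quasi-likelihood F tests over 22238 genes, p-values are adjusted by the Benjamini-Hochberg method, and a gene is called at an adjusted p under 0.05.

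In stimulated cells 4 of the 10 genes, Gbp4, Gbp7, Gbp8 and Gbp9, were lower than in naive cells, and 0 were higher, while Ifng was 50.0-fold higher. The genes that fell lie mainly in the chromosome 5 cluster; Gbp2, Gbp5, Irgm1 and Igtp, which include the most abundant members, did not pass the test. No member with a positive change had an unadjusted p under 0.05, and DESeq2 also called 0 members higher and 4 lower. Over all genes tested 39.5% were called, 20.2% lower and 19.2% higher, so the number of members called is close to the background and their direction was 4 lower and 0 higher. That background covers all 22238 genes tested, which include genes far below the members, such as Gbp2b with a naive mean of 0.0589 CPM. With scaling by library totals alone, 2600 genes were higher and 6529 lower, against 4272 and 4501 with TMM factors, and 6 members were lower, Gbp6 and Igtp besides the 4. That scaling moved the median log2 change of all genes to -0.71, against -0.22 with TMM factors, and that of the 10 members to -1.13, against -0.66. The stimulated libraries lay below the naive ones without overlap for 3 members (Gbp4, Gbp8 and Gbp9), against 21.7% of all genes. The myeloid marker sums given above were also higher in naive than in most stimulated libraries, and their part in these falls was not tested.

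Gbp8 and Gbp9, GBPs of the chromosome 5 cluster whose own functions are little studied, showed the deepest falls. Gbp8 had 0.636, 0.396 and 1.70 CPM in Torin libraries 1, 3 and 4, 0.812, 0.769, 1.68 and 1.15 CPM in stimulated libraries 1 to 4, and 9.55, 8.46, 9.16 and 7.21 CPM in naive libraries 1 to 4. All 7 stimulated and Torin libraries lay below all 4 naive libraries, and the Torin and stimulated ranges overlapped. Gbp8 was 7.80-fold lower in stimulated than in naive cells, a log2 change of -2.96 (SE 0.45, adjusted p = 0.000351 by edgeR). Gbp9 had 0.640, 1.70 and 1.29 CPM in Torin libraries, 1.30, 1.05, 0.260 and 0.752 CPM in stimulated libraries, and 7.24, 7.62, 7.54 and 6.16 CPM in naive libraries. The naive libraries were again all above the rest, with Torin and stimulated libraries mixed. The log2 change in stimulated against naive cells was -3.08 (SE 0.47, adjusted p = 0.000370 by edgeR), or 8.48-fold lower.

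Gbp4, which in mouse cells is reported to restrain the interferon factor Irf7, fell less far. It had 2.82, 2.76 and 3.70 CPM in Torin libraries, 3.94, 3.69, 3.34 and 4.59 CPM in stimulated libraries, and 13.8, 13.9, 12.0 and 8.64 CPM in naive libraries. Every naive library exceeded every stimulated and Torin library. Its log2 change in stimulated against naive cells was -1.64 (SE 0.20, adjusted p = 9.61e-05 by edgeR), or 3.11-fold lower. Because exons of Gbp4, Gbp8 and Gbp9 overlap, their counts were also summed before the fit, a choice made after the values were seen. The sum was 5.83 ± 0.542 CPM in stimulated and 27.8 ± 3.96 CPM in naive cells (SD, n = 4 each), a log2 change of -2.25 (SE 0.19, adjusted p = 1.09e-05 by edgeR).

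Gbp6, one of the GBPs found on parasite vacuoles in mouse cells, had 1.74, 2.13 and 2.40 CPM in Torin libraries, 4.43, 3.59, 1.59 and 2.78 CPM in stimulated libraries, and 6.40, 6.38, 4.73 and 3.43 CPM in naive libraries. Stimulated and naive libraries overlapped, and all 3 Torin libraries lay below all naive ones. Gbp6 was not called in stimulated against naive cells (log2 change -0.76, SE 0.32, adjusted p = 0.0876 by edgeR). It was called without stimulated 1 (log2 change -0.98, adjusted p = 0.0425 by edgeR). Summed with Gm43302 and Gbp10, with which it shares most of its sequence, the change was -0.74 (adjusted p = 0.128 by edgeR).

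**Figure D2:**
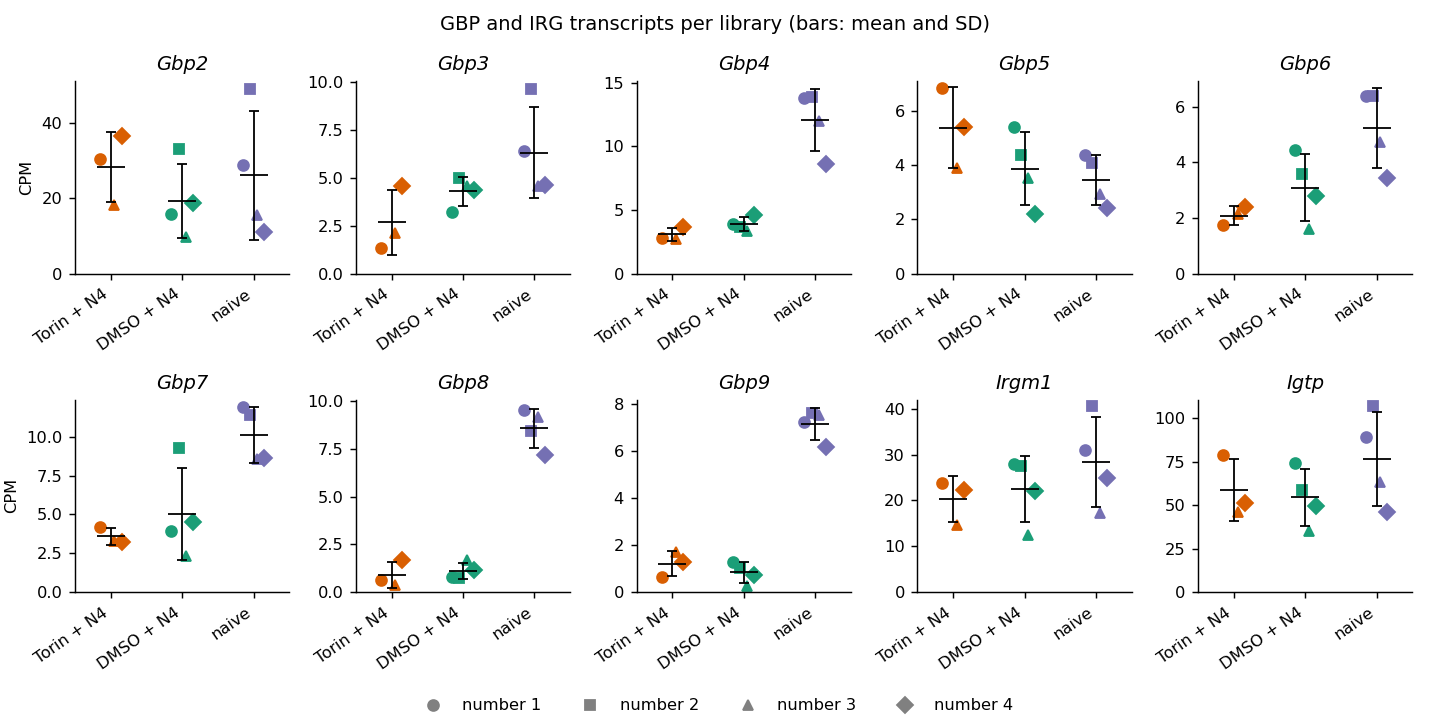
CPM of each of the 10 members in every library (y axis), with Torin (Torin + N4), stimulated (DMSO + N4) and naive libraries from left to right in each panel; points are libraries, their shape gives the library number, and bars are the mean and SD. In the panels of Gbp4, Gbp8 and Gbp9 all naive points lie above all others, and in those of Gbp2, Gbp5, Irgm1 and Igtp the 3 groups overlap.

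Of the 4 members on chromosome 3, only Gbp7 was called in stimulated against naive cells. Gbp7, which in mouse macrophages helps assemble the oxidase that makes reactive oxygen, had 4.22, 3.30 and 3.23 CPM in Torin libraries, 3.93, 9.25, 2.36 and 4.54 CPM in stimulated libraries, and 11.9, 11.4, 8.58 and 8.60 CPM in naive libraries. Stimulated 2 reached the naive range and the other 3 stimulated libraries lay below it. The log2 change in stimulated against naive cells was -1.01 (SE 0.35, adjusted p = 0.0413 by edgeR), lower in all 4 numbers. The call is marginal: leaving out any single library other than stimulated 2 ended it, with adjusted p between 0.0514 and 0.0964 and log2 changes between -1.08 and -0.70. Without number 2 of every group, where the granulocyte markers were high, the change was -1.43 (adjusted p = 0.00484 by edgeR).

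Gbp3, which acts with the other chromosome 3 GBPs against bacteria and parasites, had 1.33, 2.11 and 4.61 CPM in Torin libraries, 3.23, 4.98, 4.61 and 4.39 CPM in stimulated libraries, and 6.44, 9.64, 4.61 and 4.62 CPM in naive libraries. Its means of 2.68, 4.30 and 6.33 CPM in Torin, stimulated and naive cells hid an overlap: the upper stimulated libraries lay near the level of naive 3 and 4. The log2 change in stimulated against naive cells was -0.56 (SE 0.38, adjusted p = 0.277 by edgeR), which is not called.

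Gbp2 and Gbp5 are GBPs that carry a lipid anchor at their end and promote inflammasome activity in mouse macrophages. Neither was called in any of the 3 comparisons, except Gbp5 in Torin against naive cells with library number as a block. Gbp2 had 30.4, 18.3 and 36.4 CPM in Torin libraries, 15.8, 33.0, 9.83 and 18.8 CPM in stimulated libraries, and 28.7, 49.1, 15.5 and 11.1 CPM in naive libraries. The 3 groups overlapped widely, and the highest stimulated and naive values both came from number 2, the libraries with high granulocyte markers. The log2 change in stimulated against naive cells was -0.43 (SE 0.48, adjusted p = 0.516 by edgeR), and 0.07 (adjusted p = 0.920 by edgeR) without naive 2. Gbp5 had 6.85, 3.88 and 5.41 CPM in Torin libraries, 5.39, 4.36, 3.51 and 2.21 CPM in stimulated libraries, and 4.37, 4.07, 2.93 and 2.41 CPM in naive libraries. All 3 groups overlapped, and Gbp5 was the only member with a positive change in stimulated against naive cells, 0.17 (SE 0.31, adjusted p = 0.710 by edgeR). It was negative with scaling by library totals alone, at -0.31, and without stimulated 1, at -0.04.

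Among the regulatory IRGs, Irgm1 had 23.9, 14.6 and 22.3 CPM in Torin libraries, 28.0, 27.6, 12.5 and 22.0 CPM in stimulated libraries, and 31.0, 40.6, 17.2 and 24.8 CPM in naive libraries. Number 3 was the lowest library in every group. The log2 change in stimulated against naive cells was -0.33 (SE 0.31, adjusted p = 0.429 by edgeR). Igtp, the most abundant member, had 79.0, 46.1 and 51.0 CPM in Torin libraries, 73.9, 58.8, 35.3 and 49.6 CPM in stimulated libraries, and 89.3, 107, 63.1 and 46.0 CPM in naive libraries. The ranges overlapped and naive 2 was the highest library. Its log2 change in stimulated against naive cells was -0.49 (SE 0.30, adjusted p = 0.227 by edgeR), and -0.55 (adjusted p = 0.156) when counts of Irgm2, whose exons it overlaps, were added. With scaling by library totals alone Igtp was called, at -0.95 (adjusted p = 0.0488).

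Naive 2 was the highest library of all 11 for 6 members, Gbp2, Gbp3, Gbp4, Gbp9, Irgm1 and Igtp, for Gbp4 and Gbp9 by a narrow margin over naive 1 and naive 3, and it also held the highest granulocyte and monocyte marker levels; the part of those cells in these values was not tested beyond leaving the library out. Without naive 2, 3 members were called lower in stimulated than in naive cells, and without number 2 of every group 4 were. Without number 4 of every group, which held the B cell markers, 3 were. In Torin against naive cells 5 were lower without number 2 and 5 without number 4. The other naive libraries also held more myeloid marker RNA than the Torin libraries, which leaving out naive 2 does not remove.

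Per kilobase of exon, which allows levels of different genes to be compared, Igtp was the most abundant member in every group, with 29.0 ± 8.78 CPM per kb in Torin, 26.9 ± 8.01 in stimulated and 37.8 ± 13.4 in naive cells (SD). Gbp2 came next with 11.3 ± 3.68 CPM per kb in Torin, 7.69 ± 3.90 in stimulated and 10.4 ± 6.79 in naive cells, and Irgm1 followed with 3.48 ± 0.854, 3.88 ± 1.24 and 4.89 ± 1.71 in the same order of groups. These 3 genes kept the top 3 places in all 3 groups. Below them the order differed: Gbp8 was the fourth in naive cells with 2.50 ± 0.298 CPM per kb, and the ninth in Torin and stimulated cells with 0.265 ± 0.202 and 0.320 ± 0.122. Gbp5, the lowest member in naive cells with 0.519 ± 0.139 CPM per kb, was the fifth in Torin cells with 0.810 ± 0.224 and the sixth in stimulated cells with 0.583 ± 0.203. Neighbours from the fourth place down lay within 1 SD of each other in most cases, so in naive cells Gbp3 (1.94 ± 0.726), Gbp7 (1.80 ± 0.315) and Gbp4 (1.61 ± 0.328) had no clear order. In stimulated cells the same holds for Gbp6 (0.520 ± 0.204) and Gbp4 (0.519 ± 0.0703). Exon lengths came from GENCODE M21, while the files are on mm39, so these values per kb are approximate.

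No difference between Torin-treated and stimulated cells was detectable for any of the 10 genes. In Torin against stimulated cells, 0 of the 10 members were called by edgeR, 0 by DESeq2, and 0 had an unadjusted p under 0.05, where 4.62% of all genes were called (2.32% higher, 2.30% lower; 719 genes higher and 345 lower with library totals alone, against 515 and 512 with TMM factors) and 20.0% had an unadjusted p under 0.05. The median log2 change of the members was -0.21, against -0.02 over all genes (-0.06 and 0.11 with library totals alone), and the groups overlapped for every member, while 10.1% of all genes had no overlap with Torin lower and 9.55% with Torin higher. The widest differences were -0.68 for Gbp3 (SE 0.42, adjusted p = 0.402 by edgeR), -0.57 for Gbp6 (SE 0.35, adjusted p = 0.412), 0.55 for Gbp2 (SE 0.51, adjusted p = 0.624) and 0.53 for Gbp9 (SE 0.47, adjusted p = 0.606). With standard errors of 0.22 to 0.51 a change of moderate size in either direction was not detectable. Without Torin 4, the difference was -1.30 for Gbp3 (adjusted p = 0.102 by edgeR) and -1.08 for Gbp8 (adjusted p = 0.160).

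Within library numbers, Gbp2 was higher in the Torin than in the stimulated library in 3 of 3 numbers: 30.4 against 15.8 CPM in number 1, 18.3 against 9.83 CPM in number 3 and 36.4 against 18.8 CPM in number 4. The log2 ratios of these pairs were 0.94, 0.89 and 0.95. Stimulated 2 has no Torin partner and was the highest of its group at 33.0 CPM. With the number as a block the change of Gbp2 was 0.96, still not called (adjusted p = 0.119 by edgeR). Gbp5 and Igtp were also higher in Torin in 3 of 3 numbers, and Gbp4 was lower in 3 of 3, without a call.

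Against naive cells, Torin-treated cells had 6 of the 10 members lower and 0 higher by both edgeR and DESeq2, where 15.8% of all genes were called lower and 16.4% higher (32.2% in all). No member with a positive change had an unadjusted p under 0.05. With scaling by library totals alone 2284 genes were higher and 4553 lower, against 3648 and 3515 with TMM factors, and 6 members were lower; the median log2 change was then -0.52 for all genes and -1.62 for the members. The same 6, Gbp3, Gbp4, Gbp6, Gbp7, Gbp8 and Gbp9, had no overlap between the groups, as 22.4% of all genes had with Torin lower. For Gbp3 the gap was smaller than the digits given: Torin 4 and naive 3 were both at 4.61 CPM and naive 4 at 4.62 CPM. With the library number as a block, Gbp3 was not called (-1.19, adjusted p = 0.0563 by edgeR), and Gbp5 was called higher (0.75, adjusted p = 0.0499). Without the block the median log2 change was -1.28 for the members and -0.18 for all genes. Gbp8 was 9.41-fold lower (log2 change -3.23, SE 0.51, adjusted p = 0.000728 by edgeR), and its change was -3.95 without Torin 4. Gbp9 was 5.89-fold lower (-2.56, SE 0.51, adjusted p = 0.00313) and Gbp4 3.91-fold lower (-1.97, SE 0.23, adjusted p = 0.000129). The sum of Gbp4, Gbp8 and Gbp9 was 5.22 ± 1.34 CPM in Torin cells (n = 3), a log2 change of -2.41 against naive cells (adjusted p = 3.82e-05 by edgeR). It differed from the stimulated sum by -0.16 (adjusted p = 0.727).

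The other 3 calls were less firm. Gbp7 averaged 3.58 ± 0.551 CPM in Torin and 10.1 ± 1.77 CPM in naive cells (log2 change -1.50, SE 0.39, adjusted p = 0.0135 by edgeR), and was not called without Torin 3 (adjusted p = 0.0543) or Torin 4 (0.0665). Gbp6 averaged 2.09 ± 0.334 CPM in Torin and 5.24 ± 1.44 CPM in naive cells (-1.33, SE 0.36, adjusted p = 0.0162 by edgeR), and was not called without Torin 1 (0.0735) or Torin 3 (0.0542). Gbp3 averaged 2.68 ± 1.71 CPM in Torin and 6.33 ± 2.37 CPM in naive cells (-1.24, SE 0.42, adjusted p = 0.0446 by edgeR). It lost its call when any of 7 libraries was left out, with adjusted p between 0.0549 and 0.149; these were Torin 1 and 3, stimulated 2, 3 and 4, and naive 1 and 2. Of the 4 members not called, Gbp2 and Gbp5 had changes of 0.12 (SE 0.52, adjusted p = 0.889 by edgeR) and 0.64 (SE 0.34, adjusted p = 0.172), and Irgm1 and Igtp of -0.49 (SE 0.34, adjusted p = 0.306) and -0.38 (SE 0.33, adjusted p = 0.420). Since Torin and stimulated cells were both set against the same naive libraries, the likeness of these falls to those in stimulated cells is not counted as a second result.

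**Figure D3:**
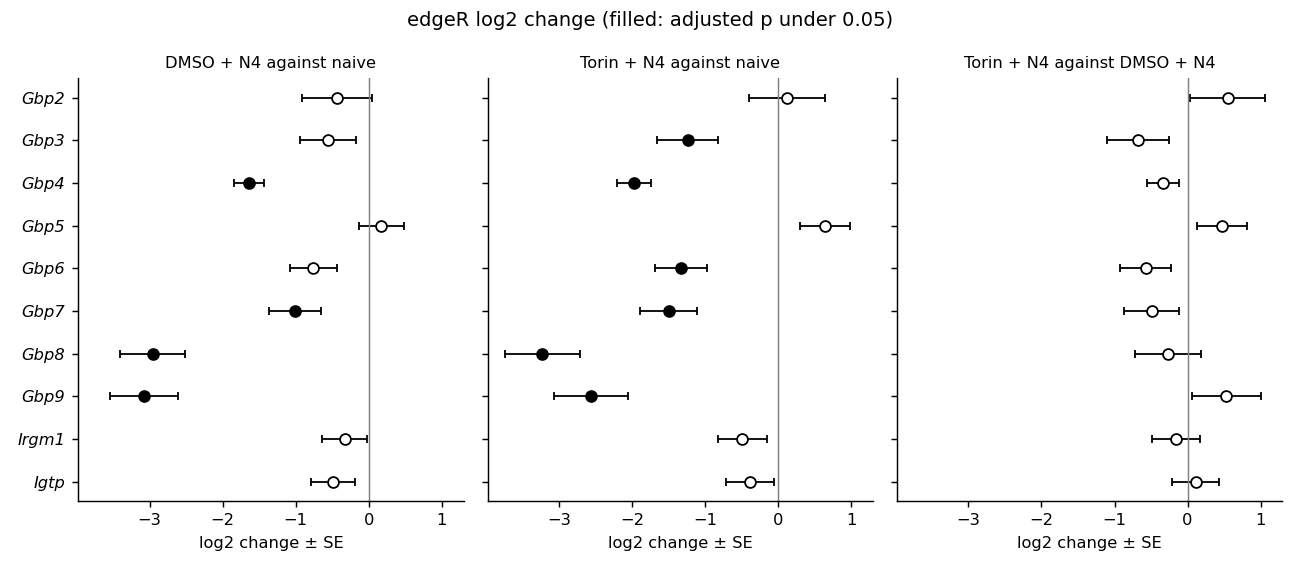
Log2 change of each member with its standard error, for stimulated (DMSO + N4) against naive, Torin against naive and Torin against stimulated cells, in panels from left to right; filled points are called by edgeR at an adjusted p under 0.05. The filled points number 4, 6 and 0, and all lie below 0.

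Ifng had 336, 593 and 628 CPM in Torin libraries, 1863, 3516, 3320 and 4096 CPM in stimulated libraries, and 189, 62.6, 1.50 and 3.34 CPM in naive libraries. The 3 groups did not overlap, and in ratio the naive libraries differed more among themselves than the stimulated ones. The log2 change was 5.64 in stimulated against naive cells (SE 1.30, adjusted p = 0.00514 by edgeR), and 7.15 (adjusted p = 0.00227) without naive 1. In Torin against stimulated cells it was -2.62, lower in 3 of 3 numbers and not called in the fit of all 11 libraries (SE 1.27, adjusted p = 0.278 by edgeR), though called by DESeq2 (adjusted p = 0.0401) and when only these 2 groups were fitted (0.0107). In Torin against naive cells it was 3.02, not called (SE 1.19, adjusted p = 0.0761 by edgeR), though called by DESeq2 (adjusted p = 0.00475), and 4.53 with a call by edgeR without naive 1 (adjusted p = 0.0178).

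The 10 members summed to 152, 95.3 and 132 CPM in Torin libraries, 141, 147, 75.1 and 111 CPM in stimulated libraries, and 209, 258, 145 and 123 CPM in naive libraries. Stimulated 4 had the most Ifng of all libraries, 4096 CPM, beside a member sum of 111 CPM, below those of all 4 naive libraries. Stimulated 2, with 3516 CPM of Ifng, had a sum of 147 CPM, above those of naive 3 and 4. The sum of stimulated 1, 141 CPM, was above that of naive 4. Igtp alone made up 52.5% of the sum in stimulated 1 and 37.4% in naive 4. Without Igtp that order reversed, with 66.9 CPM in stimulated 1 and 77.0 CPM in naive 4. Stimulated 2 without Igtp, at 88.3 CPM, stayed above naive 3 and 4 (82.3 and 77.0 CPM). Among naive libraries, numbers 1 and 2 had the most Ifng and also the highest member sums. With 3 separate groups of at most 4 libraries each, a relation between Ifng and the members across libraries was not tested.

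**Figure D4:**
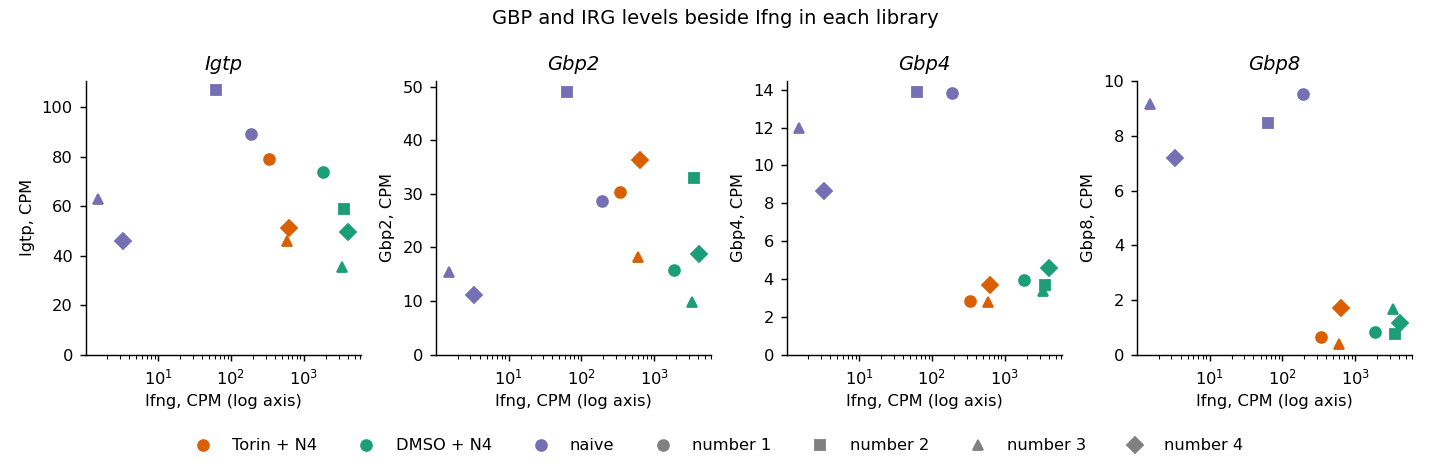
CPM of Igtp, Gbp2, Gbp4 and Gbp8 (y axes) against Ifng CPM of the same library (x axis, log scale), 1 point per library, coloured by group and shaped by library number. Torin points lie at 336 to 628 CPM of Ifng, stimulated points at 1863 to 4096 CPM and naive points at 1.50 to 189 CPM; for Gbp4 and Gbp8 the naive points are the highest, and for Igtp and Gbp2 the 3 groups overlap.

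The genes between interferon gamma and the members changed in both directions. The counts of each list stand against the shares of all genes called by edgeR. These were 19.2% higher and 20.2% lower in stimulated against naive cells, and 2.32% higher and 2.30% lower in Torin against stimulated cells. In Torin against naive cells they were 16.4% higher and 15.8% lower. Of 14 genes for the ligand, receptor and signalling, 3 were higher and 7 lower in stimulated than in naive cells (median log2 change -1.13). With library numbers as a block, and also by DESeq2, 4 were higher and 8 lower: the block added Jak2 (0.46, adjusted p = 0.0247 by edgeR) and Stat2 (-1.25, adjusted p = 0.0420). Ifngr1, the ligand-binding receptor chain, averaged 26.7 ± 22.0 CPM in stimulated and 419 ± 133 CPM in naive cells (log2 change -3.97, adjusted p = 0.000103 by edgeR), and -4.73 without stimulated 1. Ifngr2, the other chain, changed by -2.56 (adjusted p = 0.00272), and by -3.25 without stimulated 2. Irf1 averaged 32.4 ± 5.86 CPM in stimulated and 87.0 ± 11.7 CPM in naive cells (-1.43, adjusted p = 7.55e-05). Irf1, which acts on ISREs, thus had a lower RNA level in stimulated than in naive cells, while Ifng was higher. Irf8, an ISRE-binding factor that partners Irf1, was higher, with 335 ± 97.2 CPM in stimulated and 30.6 ± 22.0 CPM in naive cells (3.45, adjusted p = 0.000548). Socs1, the feedback inhibitor of this pathway, had 384 ± 197 CPM in stimulated and 526 ± 44.3 CPM in naive cells and was not called.

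Torin cells had 2 of these 14 genes higher and 0 lower than stimulated cells by edgeR, with 2 lower at an unadjusted p under 0.05 (Irf8 and Socs1) and 2 lower by DESeq2 (Ifng and Irf8). Irf2, which competes with Irf1 for ISREs, averaged 34.1 ± 1.94 CPM in Torin and 12.7 ± 2.43 CPM in stimulated cells, a log2 change of 1.43 (adjusted p = 0.00370 by edgeR). Jak2 averaged 19.6 ± 3.90 CPM in Torin and 10.2 ± 0.970 CPM in stimulated cells (0.94, adjusted p = 0.0232), a call that ended without Torin 1 or 4 or stimulated 2, 3 or 4 (adjusted p 0.0507 to 0.0827). Irf8 (88.4 ± 13.2 CPM in Torin, 335 ± 97.2 CPM in stimulated cells) did not overlap between the groups and was not called, but DESeq2 called it, and edgeR called it without naive 3 (adjusted p = 0.0194). Irf1 was at 33.3 ± 4.64 CPM in Torin and 32.4 ± 5.86 CPM in stimulated cells. Against naive cells, 1 of the 14 was higher in Torin cells, Jak2 with a log2 change of 1.38 (adjusted p = 0.000318 by edgeR), and 8 were lower, Ifngr1 by -3.76 (adjusted p = 0.000497) and the inhibitor Socs3 by -3.05 (adjusted p = 0.00253) at the far end. DESeq2 called 3 higher, Ifng and Irf8 besides Jak2, and 9 lower; edgeR called 3 higher without naive 1 and 2 without naive 3.

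**Figure D5:**
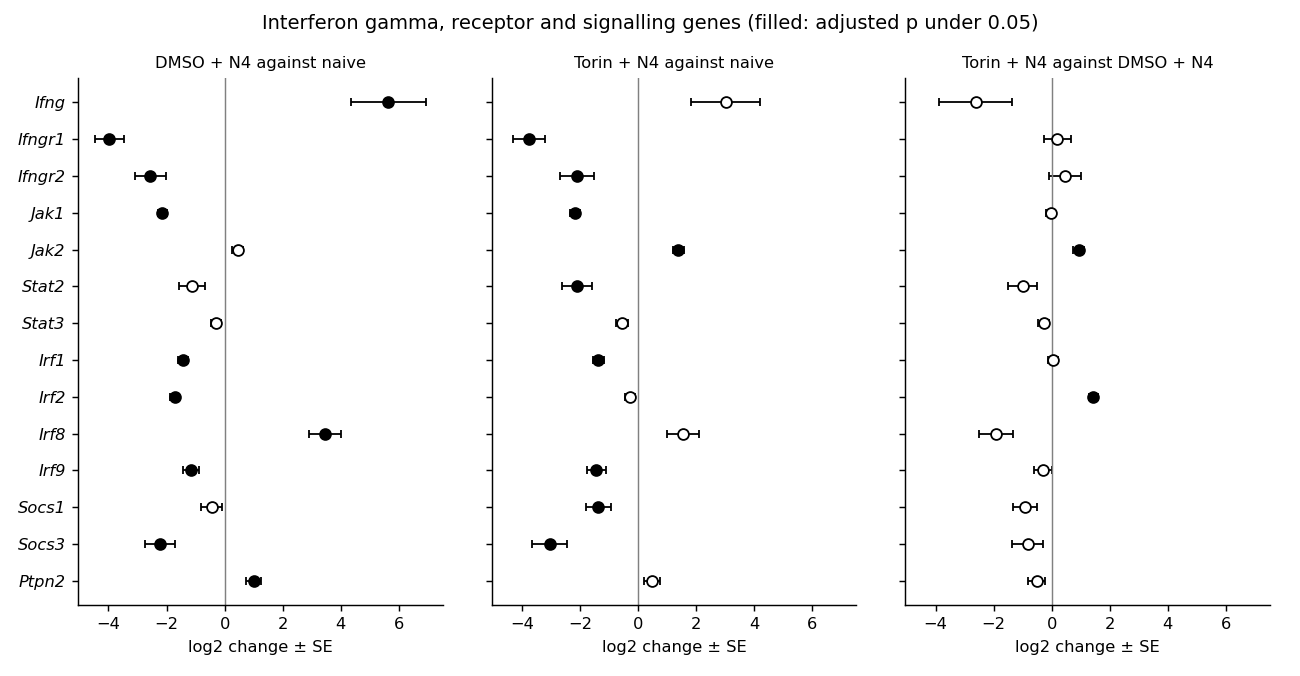
Log2 change with its standard error for the 14 ligand, receptor and signalling genes, for stimulated (DMSO + N4) against naive, Torin against naive and Torin against stimulated cells, in panels from left to right; filled points are called by edgeR at an adjusted p under 0.05. Ifngr1, Jak1 and Irf1 are filled and below 0 in both comparisons with naive cells, and Jak2 and Irf2 are the filled points in Torin against stimulated cells.

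Of the 9 other family genes, 5 were lower and 1 higher in stimulated than in naive cells, where 20.2% of all genes were lower and 19.2% higher. The effector IRGs Tgtp2 and Tgtp1 fell by 1.66 (adjusted p = 0.0101 by edgeR) and 1.46 (adjusted p = 0.0189) on the log2 scale, the Tgtp1 call ending without stimulated 3 or naive 2 (adjusted p 0.0623 and 0.0550). Irgm2, the remaining regulatory IRG, changed by -0.93 (adjusted p = 0.0338) and lost its call when any of 6 libraries was left out (Torin 4, stimulated 1, 2, 3 and 4, and naive 2; adjusted p between 0.0508 and 0.0968). The number of these genes called lower was thus 3 without stimulated 3 and 3 without naive 2. Iigp1, the best known effector IRG, rose: it had 9.90 ± 6.11 CPM in stimulated and 2.98 ± 0.847 CPM in naive cells (log2 change 1.74, adjusted p = 0.00743 by edgeR). Between Torin and stimulated cells edgeR and DESeq2 called 0 of the 9, and 1, Iigp1 with 4.48 ± 1.40 CPM in Torin cells, had an unadjusted p under 0.05. Against naive cells 4 were lower in Torin cells, with Tgtp2 at -2.44 (adjusted p = 0.00337 by edgeR).

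Of 18 other interferon gamma targets, 6 were higher and 9 lower in stimulated than in naive cells, where 19.2% of all genes were higher and 20.2% lower. Ido1, among those higher, lost its call when any of 7 libraries was left out (adjusted p 0.0504 to 0.0848 by edgeR). Zbp1, among those lower, lost its call when any of 5 was left out (adjusted p 0.0522 to 0.0886). Those lower included Tapbp, which loads peptides on MHC class I (56.2 ± 21.1 CPM in stimulated, 276 ± 94.2 CPM in naive cells; log2 change -2.29, adjusted p = 0.000191 by edgeR). The 6 higher included the chemokine Cxcl9 (56.6 ± 24.8 CPM in stimulated, 2.18 ± 1.67 CPM in naive cells; 4.70, adjusted p = 0.000621). Nos2, an enzyme of macrophages that makes nitric oxide, had 3.19 ± 4.65 CPM in stimulated and 0.0598 ± 0.120 CPM in naive cells (adjusted p = 0.0351 by edgeR); it was not called without stimulated 2 (adjusted p = 0.129), where granulocyte markers were high, nor without naive 1, 3 or 4 (adjusted p of 0.0581 or more). Against naive cells, Torin cells had 2 of the 18 higher, Cxcl9 (3.15, and 2.53 without Torin 4) and Batf2 (2.69), and 9 lower, led by Zbp1 (-2.96) and Psmb8 (-2.83). Without naive 2, 4 of the 18 were higher. Nlrc5 and Tap1, among those lower, were not called without Torin 1, 3 or 4 (adjusted p 0.0548 to 0.279 by edgeR). Between Torin and stimulated cells 2 of the 18, the immunoproteasome subunits Psmb10 (-1.89, adjusted p = 0.000944) and Psmb8 (-0.78, adjusted p = 0.00751), were lower in Torin. Psmb8 was not called without Torin 3 (adjusted p = 0.0605 by edgeR). DESeq2 called 3 lower, and so did edgeR with library numbers as a block, the third being Zbp1, a sensor of nucleic acids (-1.19, adjusted p = 0.0458 with the block and 0.0858 without it).

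Of 19 type I interferon genes, 9 were lower in Torin than in stimulated cells and 0 higher by edgeR, and 13 lower and 0 higher by DESeq2, with a median log2 change of -1.91 beside the -0.21 of the 10 members. The edgeR count rested on single libraries: 1 gene was lower without Torin 1 (Bst2) and 1 without Torin 3 (Ifit1), and 6 to 11 without any other library. When only these 2 groups were fitted it was 4. Ifit1, an antiviral RNA-binding protein, had 0.260 ± 0.217 CPM in Torin and 3.55 ± 2.65 CPM in stimulated cells (-3.77, adjusted p = 0.0201 by edgeR, and not called without Torin 1 or Torin 4, adjusted p 0.0793 and 0.0674). Its change was -4.71 without Torin 3 and -3.14 without stimulated 2, the library with raised granulocyte markers. Against naive cells 17 of the 19 were lower in Torin cells, with Ifit3 (0.115 ± 0.137 CPM in Torin, 16.2 ± 2.72 CPM in naive cells) and the receptor chaperone Rtp4 (3.20 ± 1.34 CPM in Torin, 90.9 ± 33.8 CPM in naive cells) falling furthest. Some of these calls were marginal. Rsad2, Ifi44 and Ifih1 (adjusted p = 0.0482, 0.0486 and 0.0387 by edgeR) were not called without Torin 1 or without Torin 3 (adjusted p 0.0815 to 0.156). Dhx58 was not called without Torin 3 (adjusted p = 0.0531). Of 12 genes for the loading of GBPs onto membranes and for inflammasomes, 3 were lower in stimulated than in naive cells and 0 higher by edgeR. The number lower is close to the background, where 20.2% of all genes were lower. Casp4 was higher by DESeq2, by edgeR without stimulated 1, and at an unadjusted p under 0.05. Pycard, the inflammasome adaptor ASC, had 9.53 ± 0.411 CPM in stimulated and 93.4 ± 8.20 CPM in naive cells (-3.29, adjusted p = 6.09e-06 by edgeR). Between Torin and stimulated cells edgeR called 0 of the 12, DESeq2 called 1 lower (Nlrp3), and 2 had an unadjusted p under 0.05 (Nlrp3 and Pycard).

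The transcript table divides each gene's counts between annotated transcripts and was read as a description, without a test. All Gbp2 counts were on transcript Gbp2-201 in every library. Igtp-201, the main coding transcript of Igtp, took 86.0%, 89.0% and 87.3% of counts in Torin libraries, 79.6%, 89.0%, 83.4% and 83.7% in stimulated libraries, and 77.3%, 78.5%, 70.1% and 67.2% in naive libraries, so every naive library was below all others. Irgm1 was divided between 2 coding transcripts: Irgm1-202 took 48.7%, 70.2% and 67.3% in Torin libraries, 28.0%, 45.0%, 8.74% and 14.3% in stimulated libraries, and 36.9%, 34.3%, 66.2% and 53.9% in naive libraries. All Torin libraries lay above all stimulated libraries, while naive libraries overlapped both. How often transcripts of other genes separate in this way was not counted, so these separations cannot be read as particular to the members. At gene level, 9.55% of all genes had every Torin library above every stimulated library. On chromosome 5 the division varied between libraries of 1 group: Gbp4-202, annotated as a target of nonsense-mediated decay, took 54.9%, 97.3% and 0% of Gbp4 counts in Torin libraries 1, 3 and 4.

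Among 7374 other genes with a symbol and a mean of at least 5 CPM, the 5 with a profile most like the mean of the 10 members over the 11 libraries were Bcl3, Smox, Flot1, Acadl and Als2cl, with Pearson r of 0.96, 0.95, 0.94, 0.93 and 0.93. Bcl3, a nuclear partner of NF-kB, had 19.0, 13.5 and 27.3 CPM in Torin libraries, 38.6, 49.2, 10.9 and 29.1 CPM in stimulated libraries, and 191, 142, 91.8 and 37.4 CPM in naive libraries. As for Irgm1, number 3 was the lowest in Torin and stimulated cells. The likeness is a description over libraries that fall into 3 groups and share numbers.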

How the data were processed

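Polyadenylated RNA of 11 libraries was sequenced after SMARTer ultra-low input preparation, per the labels. The values are estimated counts per gene and transcript, used as deposited by the authors; all were whole numbers. Per the submitters' processing notes, which give no roles, reads were handled on mm39 with StringTie 2.1.0, STAR 2.7.1a and SAMtools 1.9, and with DESeq2 1.30.1 under R 4.0.5. Whether counting used strand, and how reads shared between genes were assigned, is not given in the sources used here. Unused columns of values numbered 0. Totals of 241.9e6 to 405.9e6 (ratio 1.68) are larger than read numbers usually are, so no counting error was computed.

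Symbols came from GENCODE M21 (GRCm38) by identifier without version (52081 of 55414 genes). Genes were tested in R 4.3.3 with edgeR 4.0.16 (TMM factors, filterByExpr at a minimum count of 10, group means of all 11 libraries, quasi-likelihood F tests of the deposited counts), leaving 22238 genes, with a threshold of 0.05 on Benjamini-Hochberg adjusted p. The common biological coefficient of variation was 0.79. The fit was also run on simulated counts, drawn independently for each library and without deviations shared by library number. That run cannot show how far the calls in these data hold. DESeq2 1.42.0, other scaling and filters, a block for library number, fits of 2 groups and leaving out libraries were alternatives. Same-numbered libraries deviated together in stimulated and naive cells (r 0.16, 0.23, 0.15 and 0.29) and in Torin and stimulated cells (0.11, 0.15 and 0.31). They did so in Torin and naive cells too (0.08, 0.13 and 0.28), where no pair with different numbers exceeded 0.07. Numbers were therefore read as pairing libraries in every comparison. The main tests used group means without this pairing, and the block for library number was an alternative. Genes named beside the 10 members are drawn from the 2 largest rises and falls called per list, some fixed genes, and the 5 genes most like the members by Pearson correlation of log2 CPM with a prior count of 2. Ratios within library numbers used a pseudocount of 0.1 CPM. The members and lists were chosen with earlier results of these data known. Of the signalling list, 1 gene is not reported here.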

Additional observations from a re-analysis of the deposited data

Results flagged for a closer look

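In groups of 4 libraries, the 10 members gave 0 of 20 groups in which the highest or lowest library stood apart from the other 3 by Dixon's criterion at 95%. Over these and 27 other genes of the lists, those named by the rule for named genes or fixed beside it, 5 of 74 groups did, where chance gives about 1 in 20; groups of 3 (Torin) were not tested. In naive 2, which also held the highest granulocyte and monocyte markers, Nlrp3 was at 2.04 CPM, against 0.0616 to 0.339 CPM in the other naive libraries, and Nos2 at 0.239 CPM, against 0 in the others. Nos2 was at 10.1 CPM in stimulated 2, the other library with raised granulocyte markers, against 0.235 to 1.75 CPM in the other stimulated libraries. Ifngr1 was at 59.6 CPM in stimulated 1, against 14.2 to 17.9 CPM in the others, and Jak2 at 5.71 CPM in naive 3, against 7.89 to 8.29 CPM. The part of other cells in these values was not tested.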

How the results depend on the processing

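The calls of Gbp4, Gbp8 and Gbp9 against naive cells held in every alternative in which those genes were tested, and no called change of a member reversed. In stimulated against naive cells 3 to 4 members were lower when a library or a number was left out, and 2 when only genes with a mean of at least 5 CPM were kept, which removes low members. In Torin against naive cells 3 to 6 were lower with a library or number left out (3 without Torin 3, and 3 without number 1 of every group) and 2 with that filter. With the replicate block in that comparison, Gbp3 was not called (-1.19, adjusted p = 0.0563 by edgeR) and Gbp5 was (0.75, adjusted p = 0.0499). In that fit 1 member was higher and 5 lower. The block changed no call of a member in the other 2 comparisons. Between Torin and stimulated cells the members called stayed at 0 in every alternative run, while genes called over the whole table, 1027, came to 656 with no filter, 2740 by DESeq2, and 144 to 1058 with 1 library left out (lowest for Torin 3, then 261 for Torin 1, 441 for stimulated 4, 463 for stimulated 2 and 541 for Torin 4), and 191, 338, 14 and 55 with numbers 1 to 4 left out of every group; the cause was not tested. Changes that were not called changed sign under at least 1 alternative for Gbp8 (-1.08 to 0.37), Gbp9 (-0.16 to 1.12), Irgm1 (-0.40 to 0.04) and Igtp (-0.16 to 0.29) between Torin and stimulated cells, and for Gbp2 between Torin and naive cells (-0.24 to 0.62). With a number left out of every group, the type I interferon genes lower in Torin than in stimulated cells came to 0, 3, 0 and 0 for numbers 1 to 4, against 9, and the other family genes lower in Torin than in naive cells to 0 without number 1, against 4. With the replicate block, 6 of the 18 other targets were higher in Torin than in naive cells, against 2. The spread between 3 or 4 libraries limits what could be detected.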
